A study of Mus musculus with 30 samples.

Results

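The 9 Galnt genes Galnt1, Galnt2, Galnt3, Galnt4, Galnt5, Galnt6, Galnt7, Galnt10 and Galnt12 encode enzymes that start mucin-type O-glycosylation. They were taken by gene name from the 14475 rows of the deposited expression table, and each was present once. Their levels are in FPKM, which scales the fragments of a gene by its length and by the mapped reads of the library. All 9 averaged 0.5 FPKM or more and were tested in every comparison, so no member was lost to the filter on low values. The rule uses gene names and no expression value, but the members were chosen with earlier results of these data known.

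These enzymes sit in the Golgi apparatus, where each transfers N-acetylgalactosamine (GalNAc) from the sugar nucleotide UDP-GalNAc to a serine or threonine of a protein. Other enzymes then extend that first sugar, among them C1galt1, which makes the core 1 structure, and B3gnt6, also called C3GnT, which makes core 3. In the colon the main substrate is the mucin Muc2 of goblet cells, whose glycosylated domains form the mucus layer. From work on purified human and rodent enzymes, family members divide by acceptor. Galnt1, Galnt2, Galnt3, Galnt5 and Galnt6 can act on bare peptides, whereas Galnt7 and Galnt10, and in part Galnt4 and Galnt12, act on peptides that already carry GalNAc and fill in neighbouring sites.

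The 30 libraries were made from pieces of the colon of female mice, after removal of ribosomal RNA. In each region, ascending and descending colon, 8 libraries came from mutants and 7 from wild-type littermate controls. The mutants, labelled TM-DKOAsc, carried 2 floxed copies of C1galt1, a tamoxifen-inducible Cre recombinase under the Villin promoter (VillinCre-ERT2), which is active in gut epithelium, and were C3GnT-/-. Mutants and controls alike received 0.5 mg tamoxifen, about 20 mg/kg, on each of 5 days and were analysed 5 or 10 days after the last dose; the labels do not say which interval belongs to which library. The mice came from 3 cages: cage A (labelled C57BL/6 Background, 3.4 months old; 3 mutants and 2 controls per region), cage B (Mixed BL/6-129SvJ, 2.6 months; 2 and 3) and cage C (Mixed BL/6-129SvJ, 3.2 months; 3 and 2). Strain label, age and cage cannot be told apart between cage A and the others. The labels do not say whether libraries of the same number from different regions came from 1 mouse, and the p-values measure the spread between libraries.

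The estimated depth was 1.43 to 8.87 M reads per library and differed between the regions. Its median was 3.48 M in ascending mutants and 3.85 M in ascending controls, against 7.28 M in descending mutants and 7.15 M in descending controls. Ascending mutants A3, A1 and A2 had the lowest estimates, 1.429, 1.483 and 1.585 M. The part of depth in the differences below was not tested. C1galt1 read 14.6 to 36.7 FPKM in the 16 mutant libraries, against 21.5 to 45.7 FPKM in the 14 control libraries, with log2 differences of -0.36 ± 0.13 in ascending and -0.28 ± 0.16 in descending colon that did not pass the test (adjusted p = 0.348 and 0.999). B3gnt6 was listed at 0 to 0.53 FPKM in mutants, against 0 to 0.60 FPKM in all controls except ascending controls B1 (9.52) and B2 (19.5), with overlap between the genotypes. Hoxb13, a gene of the distal colon, was at 0 to 4.55 FPKM in the ascending libraries, against 44.5 to 341 FPKM in the descending ones. The lowest of the descending values belonged to the library labelled descending control A2, in which Hoxd13 read 0.38 FPKM while the other descending libraries held 41.1 to 123 FPKM. Ascending control B1 had the highest Hoxb13 of its region and a summed level of 405 FPKM for 6 smooth muscle genes, against 5.00 to 87.1 FPKM in the other ascending libraries. Calls were also made without these 2 libraries, and values they move are given beside the results. The epithelial gene Epcam was present in every library at 322 to 1011 FPKM.

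RefSeq promoter windows of GRCm38.p6 were available for 5 of the 9 genes, and 3 are shown because their genes behaved differently below: Galnt10 was higher in the ascending colon in both genotypes, Galnt6 differed between cages, and Galnt7 did neither. Each line gives the 250 bases before the RefSeq start on the gene's own strand, 5′ to 3′, for Galnt10 at chr11:57645192-57645441 on the plus strand, Galnt6 at chr15:100729377-100729626 on the minus strand and Galnt7 at chr8:57653056-57653305 on the minus strand. Capitals mark the letters GGGCGG or their reverse complement, the sequence of a GC box.
Galnt10: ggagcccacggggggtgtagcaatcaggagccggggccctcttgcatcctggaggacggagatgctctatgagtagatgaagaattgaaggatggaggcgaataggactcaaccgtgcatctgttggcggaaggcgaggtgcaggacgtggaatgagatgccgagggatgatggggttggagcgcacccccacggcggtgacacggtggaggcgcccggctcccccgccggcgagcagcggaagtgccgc
Galnt6: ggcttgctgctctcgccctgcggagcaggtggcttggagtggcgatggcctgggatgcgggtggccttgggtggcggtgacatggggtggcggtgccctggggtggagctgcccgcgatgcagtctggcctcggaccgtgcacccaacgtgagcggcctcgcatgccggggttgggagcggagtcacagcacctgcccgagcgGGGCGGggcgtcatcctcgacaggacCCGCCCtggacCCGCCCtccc
Galnt7: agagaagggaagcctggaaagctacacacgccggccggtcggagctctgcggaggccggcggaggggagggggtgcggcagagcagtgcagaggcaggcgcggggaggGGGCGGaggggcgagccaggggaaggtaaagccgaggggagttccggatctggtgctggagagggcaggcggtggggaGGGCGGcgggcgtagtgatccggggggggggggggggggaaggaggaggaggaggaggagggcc
The Galnt6 window shown, of the start at 100729376, held 3 such matches and the Galnt7 window 2, while the Galnt10 window held 0. Among the windows not shown, that of Galnt3 held 3 and that of Galnt5 held 0. At least 1 match was held by 32.7% of all 32851 windows of the table. A second Galnt6 window, of the RefSeq start at 100720477, held 0 and had a GC content of 59.6%. GC content was 64.4% for Galnt10, 72.8% for the Galnt6 window shown and 73.6% for Galnt7, against a median of 52.4% over all windows. Other short motifs were searched on both strands in the windows of these 3 genes and of Galnt3 and Galnt5. The TATA box letters TATAAA, present in 12.4% of all windows, occurred in none of them. The GATA factor letters AGATAA, present in 9.99%, also had 0 matches. The same held for the caudal-type homeobox letters TTTATNG, present in 9.81%, and for the HNF1 half-site letters GTTAAT, present in 6.43%. CANNTG, found in 66.2% of all windows, matched in 2 places for the Galnt6 window shown, in 0 for the other Galnt6 window, in 1 for Galnt10 and in 0 for Galnt7. It matched in 2 places for Galnt3 and in 3 for Galnt5. A match is a description of the letters only.

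Among enzymes that act on bare peptides, Galnt6 had the highest level and Galnt2 the lowest. Galnt6 (chr15:100691813-100729376, minus strand, 13 exon blocks in GENCODE M21) averaged 78.8 ± 13.7 FPKM in ascending mutants and 72.5 ± 19.7 FPKM in ascending controls, and 61.3 ± 16.1 FPKM in descending mutants and 59.7 ± 19.2 FPKM in descending controls (mean ± SD, n = 8 mutants and 7 controls per region, as for all means below). Galnt3, which in humans protects the hormone FGF23 from cleavage and is the closest relative of Galnt6, averaged 16.1 ± 3.39 and 17.2 ± 3.16 FPKM in ascending mutants and controls, and 13.5 ± 3.14 and 13.3 ± 1.48 FPKM in descending mutants and controls. Galnt1, a broadly expressed member, was at 15.6 ± 2.68 and 13.6 ± 1.56 FPKM in ascending mutants and controls, and at 11.6 ± 3.36 and 12.8 ± 0.852 FPKM in descending mutants and controls. Galnt5 was at 10.1 ± 3.22 and 10.2 ± 3.79 FPKM in ascending mutants and controls, and at 10.5 ± 2.27 and 9.85 ± 2.36 FPKM in descending mutants and controls. Galnt2, the other broadly expressed member, was listed at 0 in 9 libraries (4 ascending mutants, 1 ascending control, 2 descending mutants and 2 descending controls) and reached 3.53 FPKM in ascending mutants, 5.83 in ascending controls, 2.29 in descending mutants and 2.97 in descending controls. Of its exon bases, 90.0% are shared with the annotated gene Gm20388 on the same strand, and the handling of such reads by the authors is not stated, so its low values are uncertain and no fold change is given for it.

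The enzymes that act on GalNAc-bearing peptides were among the more abundant. Galnt12, known in humans as an enzyme of the digestive tract, averaged 70.0 ± 11.0 and 72.3 ± 7.31 FPKM in ascending mutants and controls, and 27.1 ± 4.10 and 30.3 ± 15.5 FPKM in descending mutants and controls. Without descending control A2 the descending controls averaged 24.6 ± 4.16 FPKM (n = 6). Galnt4, whose coding region lies in a single exon, averaged 61.0 ± 16.6 and 56.6 ± 18.5 FPKM in ascending mutants and controls, and 46.2 ± 12.8 and 48.0 ± 12.6 FPKM in descending mutants and controls. Galnt7 averaged 49.0 ± 9.04 and 52.7 ± 9.36 FPKM in ascending mutants and controls, and 54.4 ± 8.06 and 50.3 ± 2.48 FPKM in descending mutants and controls. Galnt10 averaged 35.2 ± 6.05 and 39.7 ± 9.28 FPKM in ascending mutants and controls, and 26.6 ± 4.71 and 23.7 ± 4.29 FPKM in descending mutants and controls. Exons of Galnt4 overlap those of Poc1b on the same strand over 8.25% of their length (Poc1b read 7.57 to 12.02 FPKM), and those of Galnt6 and Galnt5 overlap Galnt6os and Ermn on the other strand over 11.4% and 5.31%. Whether strand was used in counting is not given.

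In mean FPKM the order was Galnt6, Galnt12, Galnt4, Galnt7, Galnt10, Galnt3, Galnt1, Galnt5 and Galnt2 in the ascending colon of both genotypes. In the descending colon of both genotypes Galnt12 stood behind Galnt6, Galnt7 and Galnt4. Neighbours in these orders overlapped in range, with the exception of Galnt10 above Galnt3 in all 4 groups and Galnt5 above Galnt2 in 3 groups (not in ascending controls). FPKM divides by gene length, but the length used by the authors is not given, so the order between genes is approximate.

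**Figure D1:**
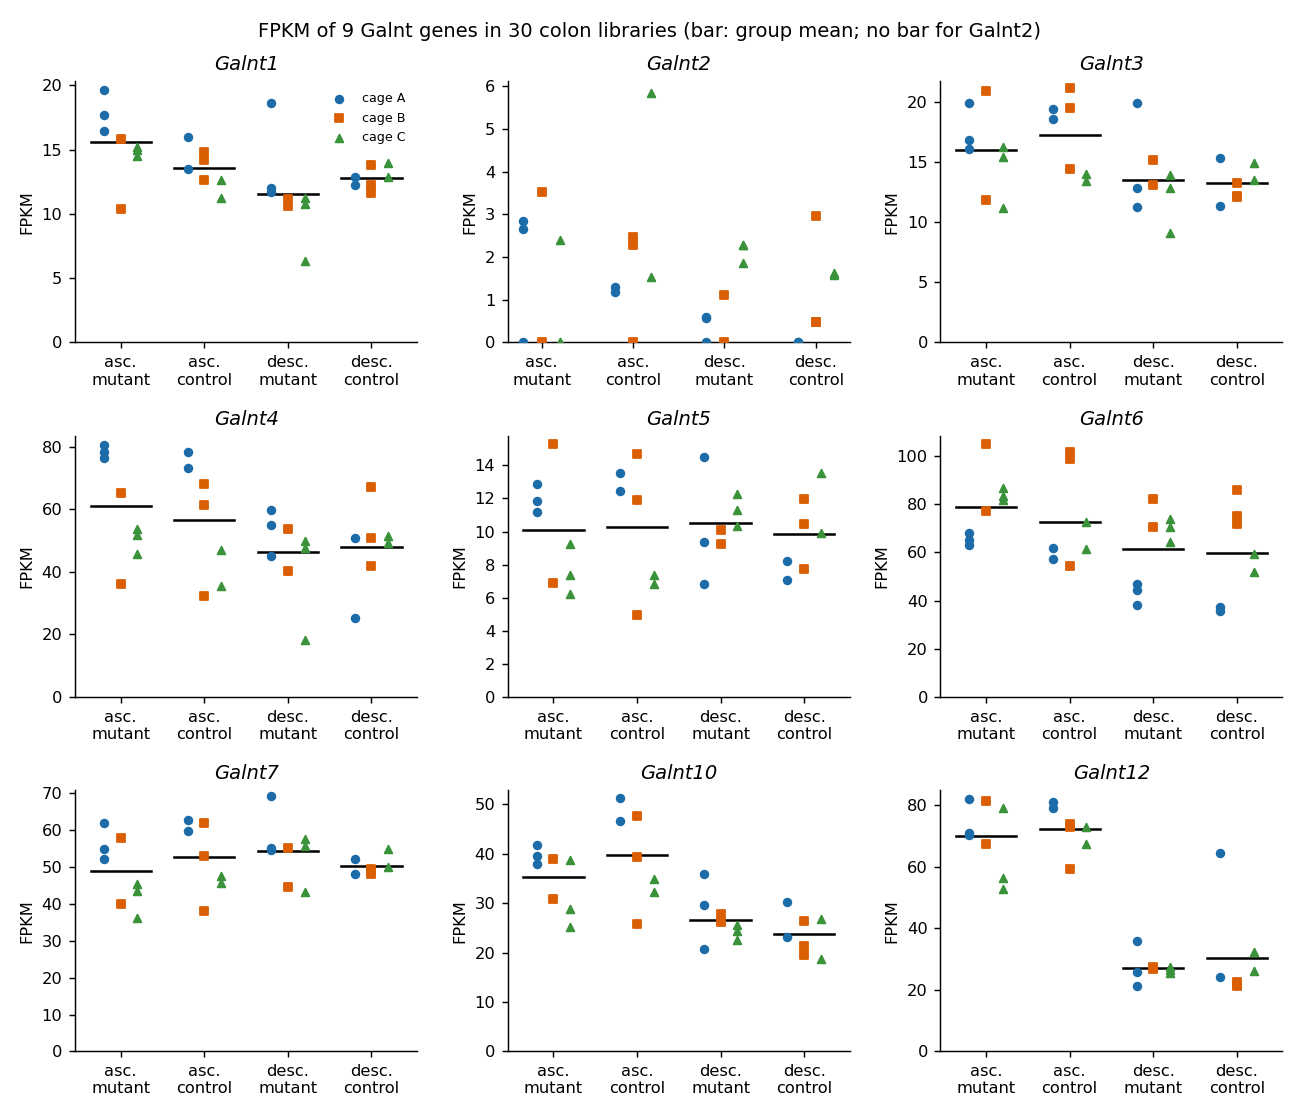
FPKM (vertical axes, each from 0) of the 9 genes in the 30 libraries, by region and genotype; each symbol is a library, shaped and coloured by cage, and bars are group means, drawn for all genes but Galnt2. Galnt12 sits at 52.7 to 82.0 FPKM in the ascending groups and at 21.2 to 35.9 FPKM in the descending ones, with the exception of the library labelled descending control A2 at 64.4 FPKM.

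The ascending colon held more Galnt12 and Galnt10 transcript than the descending colon in mutants and in controls alike. Per library, Galnt12 in mutants ran from 52.7 through a median of 70.6 to 82.0 FPKM in the ascending colon, against 21.2, 26.7 and 35.9 FPKM in the descending colon. The 8 ascending mutants all lay above the 8 descending ones. The fitted log2 difference of FPKM + 1 was 1.33 ± 0.12 (SE; adjusted p = 9.87e-08), and the ratio of mean FPKM was 2.59. In controls Galnt12 ran from 59.2 through 72.8 to 81.0 FPKM in the ascending colon, against 21.3, 24.1 and 64.4 FPKM in the descending colon, with a log2 difference of 1.33 ± 0.18 (adjusted p = 6.51e-05). The single descending control above any ascending control was A2, and without it the difference was 1.51 ± 0.096 (adjusted p = 7.64e-08). Within cages A, B and C the difference was 1.42, 1.41 and 1.19 in mutants, and 1.00, 1.61 and 1.24 in controls. In pieces of tissue, fewer cells of a type and less RNA per cell cannot be told apart.

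Galnt10 in mutants ran from 25.2 through a median of 38.3 to 41.8 FPKM in the ascending colon, against 20.7, 25.9 and 35.8 FPKM in the descending colon. The groups overlapped, and 5 of 8 ascending mutants lay above every descending one (log2 difference 0.39 ± 0.11, adjusted p = 0.0115). In controls Galnt10 ran from 25.8 through 39.4 to 51.3 FPKM in the ascending colon, against 18.7, 23.2 and 30.3 FPKM in the descending colon. Here 6 of 7 ascending controls lay above every descending one, and the log2 difference was 0.70 ± 0.14 (adjusted p = 0.00151). The exception was ascending control B1, and without it the difference was 0.79 ± 0.12. The differences had the same sign in all 3 cages of each genotype.

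Galnt6 and Galnt1 were higher in the ascending colon of mutants, and Galnt3 in that of controls, each by less than 0.5 on the log2 scale. Galnt6 had a difference of 0.39 ± 0.097 in mutants (adjusted p = 0.00443) and 0.30 ± 0.15 in controls (adjusted p = 0.121). In mutants it ran from 63.2 through 79.5 to 105 FPKM in the ascending colon, against 38.0, 67.5 and 82.0 FPKM in the descending colon, with wide overlap. Without ascending control B1 the control difference was 0.43 ± 0.097 and passed (adjusted p = 0.0040). Without cage A the Galnt6 difference in mutants was 0.26 ± 0.14 (adjusted p = 0.157). Galnt1 had a difference of 0.43 ± 0.13 in mutants (adjusted p = 0.0163), lost without cage A (adjusted p = 0.0591) or cage C (0.160), and 0.07 ± 0.088 in controls (adjusted p = 0.537). Galnt3 had a difference of 0.34 ± 0.12 in controls (adjusted p = 0.0335), a call lost in 11 of 27 alternatives, and 0.23 ± 0.14 in mutants (adjusted p = 0.186). Galnt10 in mutants lost its call without cage A (0.33 ± 0.14, adjusted p = 0.0862).

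Galnt2, Galnt4, Galnt5 and Galnt7 passed in neither genotype. For Galnt2, whose low values are uncertain, adjusted p was 0.936 in mutants and 0.186 in controls (limma). Galnt4 had a difference of 0.41 ± 0.19 in mutants (adjusted p = 0.0818), which passed without ascending mutant B1 (0.52 ± 0.18, adjusted p = 0.0256) and was 0.26 ± 0.13 without descending mutant C1 (adjusted p = 0.110). In controls the Galnt4 difference was 0.21 ± 0.24 (adjusted p = 0.515), 0.02 ± 0.19 without descending control A2 and 0.35 ± 0.22 without ascending control B1. Without ascending control B1 the control differences of Galnt5 and Galnt7 were 0.16 and 0.12, in place of the values that follow. Galnt5 differed by -0.08 ± 0.17 in mutants and by 0.00 ± 0.23 in controls, with 95% intervals of -0.45 to 0.29 and -0.49 to 0.49. Galnt7 differed by -0.16 ± 0.11 in mutants and 0.05 ± 0.11 in controls, with intervals of -0.39 to 0.08 and -0.19 to 0.28.

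In all, 4 of 9 genes were higher in the ascending colon and 0 lower in mutants, where 14.3% of the 12203 genes tested were higher, 29.7% lower and 44.0% passed in either direction. In controls 3 of 9 were higher and 0 lower, where 12.8% of 12515 genes were higher, 25.1% lower and 37.9% passed in either direction. The share of members that were higher was thus above that of all genes in each genotype, without a test. Counted in either direction, 4 of 9 members in mutants and 3 of 9 in controls passed, close to the 44.0% and 37.9% of all genes. The median difference of the 9 genes was 0.39 in mutants and 0.30 in controls, beside medians of -0.16 and -0.14 over all genes tested. With median-of-ratios scaling the medians over all genes were -0.03 and -0.01, and the share of higher genes among those called moved to 50.5% in mutants and 53.2% in controls, against 32.6% and 33.7% as deposited. Relative to the deposited medians, Galnt12 stood 1.49 higher in mutants and 1.47 in controls, and Galnt10 stood 0.55 and 0.84 higher. Under median-of-ratios scaling 2325 of 12193 genes were higher in mutants and 2141 of 12494 in controls. Galnt3 and Galnt4 then also passed in mutants (0.38 ± 0.13 and 0.57 ± 0.18), and Galnt6 also passed in controls (0.46 ± 0.14). Galnt5 in mutants turned to 0.07 ± 0.16 without passing. Marker genes of other cell types also differed between the regions. Of the T cell genes 4 of 4 tested were higher in the ascending colon in each genotype, 5 of 6 genes of dividing cells were lower in mutants and 6 of 6 in controls, and 6 of 6 smooth muscle genes were lower in mutants. Of 8 goblet cell markers, 2 were higher and 4 lower in mutants, and 2 higher and 1 lower in controls. Of 6 absorptive colonocyte genes, 3 were higher and 3 lower in mutants, and 3 higher and 2 lower in controls. Of 6 general epithelial genes, 2 were higher and 2 lower in mutants, and 2 higher and 0 lower in controls. Of 7 fibroblast and matrix genes, 4 were lower in mutants and 0 in controls. The summed smooth muscle level was 5.00 to 48.7 FPKM in ascending mutants against 33.0 to 265 FPKM in descending mutants, and 10.9 to 405 FPKM in ascending controls against 25.9 to 414 FPKM in descending controls. Their part in the Galnt differences was not tested.

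**Figure D2:**
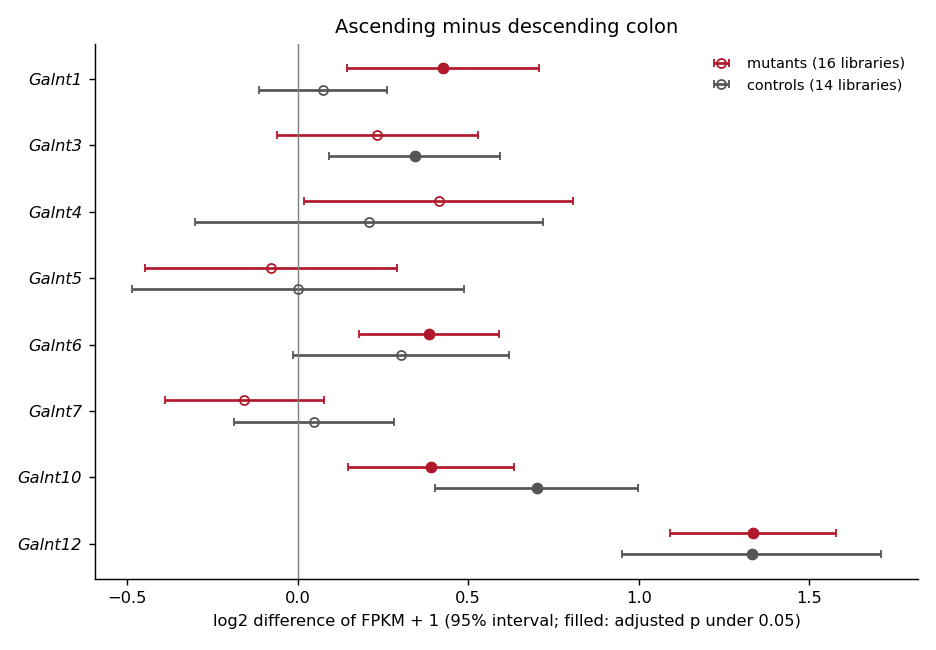
Fitted differences between ascending and descending colon on the log2 scale of FPKM + 1 (horizontal axis), for mutants (upper symbol of each pair) and controls (lower), with 95% intervals; filled symbols passed at an adjusted p under 0.05. Galnt12 lies near 1.33 in both genotypes, Galnt10 at 0.39 and 0.70, and Galnt5 and Galnt7 near 0; Galnt2 is not drawn.

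Summed over the 9 genes, the level was 337 ± 43.9 FPKM in ascending mutants and 337 ± 59.5 FPKM in ascending controls, and 252 ± 23.4 and 249 ± 17.7 FPKM in descending mutants and controls. With median-of-ratios scaling the sums were 357 ± 39.1 and 347 ± 55.2 FPKM in ascending mutants and controls, and 239 ± 18.6 and 230.1 ± 26.6 FPKM in descending mutants and controls. Galnt12 made up 20.8% ± 2.29 of that sum in ascending mutants and 21.8% ± 2.63 in ascending controls, and 10.7% ± 1.22 and 12.3% ± 6.53 in descending mutants and controls, where the 6 controls other than A2 averaged 9.90% ± 1.81. The share of Galnt7 ran the other way, at 14.5% ± 1.3 and 15.7% ± 1.12 in ascending mutants and controls, and 21.6% ± 2.26 and 20.3% ± 1.99 in descending mutants and controls. The level of Galnt7 itself did not pass the test between regions.

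Between the mutants and their wild-type controls no change of the 9 genes was detected in either region. With limma, 0 of 9 passed in ascending and 0 of 9 in descending colon, and 0 of 9 had an unadjusted p under 0.05 in either. Over all genes the percentage called was 0 of 12178 in ascending and 0 of 12219 in descending colon, with 1396 and 267 genes at an unadjusted p under 0.05. The closest were Galnt6 in ascending colon, 0.20 ± 0.13 higher in mutants (95% interval -0.07 to 0.47, adjusted p = 0.568), and Galnt6 in descending colon, 0.17 ± 0.098 higher (-0.04 to 0.38, adjusted p = 0.999). Within cages A, B and C Galnt6 was 0.14, 0.14 and 0.32 higher in ascending mutants than in ascending controls, and 0.23, -0.03 and 0.32 in descending colon. Galnt10 was 0.17 ± 0.13 lower in ascending mutants (log2 difference -0.17, interval -0.44 to 0.10) and 0.15 ± 0.13 higher in descending mutants (interval -0.13 to 0.42), values that did not pass. Without ascending control B1 the ascending difference of Galnt10 was -0.24 and that of Galnt5, 0.02 as fitted on all libraries, was -0.11, and neither passed.

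The intervals bound what a change could have been. Galnt12 differed by -0.06 ± 0.11 between ascending mutants and controls, with an interval of -0.28 to 0.16, and by -0.12 ± 0.19 in the descending colon, with an interval of -0.53 to 0.29. Without descending control A2 the second value was 0.11 ± 0.12, so its sign rested on that library. Galnt7 differed by -0.11 ± 0.11 in ascending and 0.08 ± 0.10 in descending colon. Galnt3 differed by -0.09 ± 0.13 and 0.00 ± 0.14, Galnt4 by 0.09 ± 0.16 and -0.04 ± 0.24, and Galnt5 by 0.02 ± 0.19 and 0.08 ± 0.15. Galnt1 differed by 0.15 ± 0.10 in ascending and -0.18 ± 0.14 in descending colon, and without descending mutant C1, whose Galnt1 was 6.31 FPKM, the descending value was -0.10 ± 0.11. Simulated data were recovered in these fits for 44.8% and 31.3% of changes of 0.5 on the log2 scale in ascending and descending colon. For changes of 1 the values were 89.6% and 83.6%. Each simulated set held 67 changed genes of each of these sizes, drawn from all genes tested and not matched to the members. With no gene called in the fits of the data, a change in a single gene would meet a stricter adjusted threshold. These shares can therefore overstate recovery for the members. A change of 0.5 or less could thus be missed in most cases, and some changes of 1 could be missed as well.

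The genotype difference itself did not pass as differing between regions for any of the 9 genes (percentage called 0 of 12353 genes, 198 at an unadjusted p under 0.05). The 2 members with the smallest unadjusted p were Galnt1, with an interaction of 0.34 ± 0.18 (unadjusted p = 0.0656, adjusted p = 1), and Galnt10, with -0.32 ± 0.18 (unadjusted p = 0.0946, adjusted p = 1). Nor did a genotype difference pass as depending on cage for any member (moderated F test, percentage called 0 of 12178 genes in ascending and 0.00818% of 12219 in descending colon, with 1264 and 540 at an unadjusted p under 0.05). The adjusted p of the members ran from 0.639 to 0.983 in ascending and from 0.879 to 0.962 in descending colon.

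**Figure D3:**
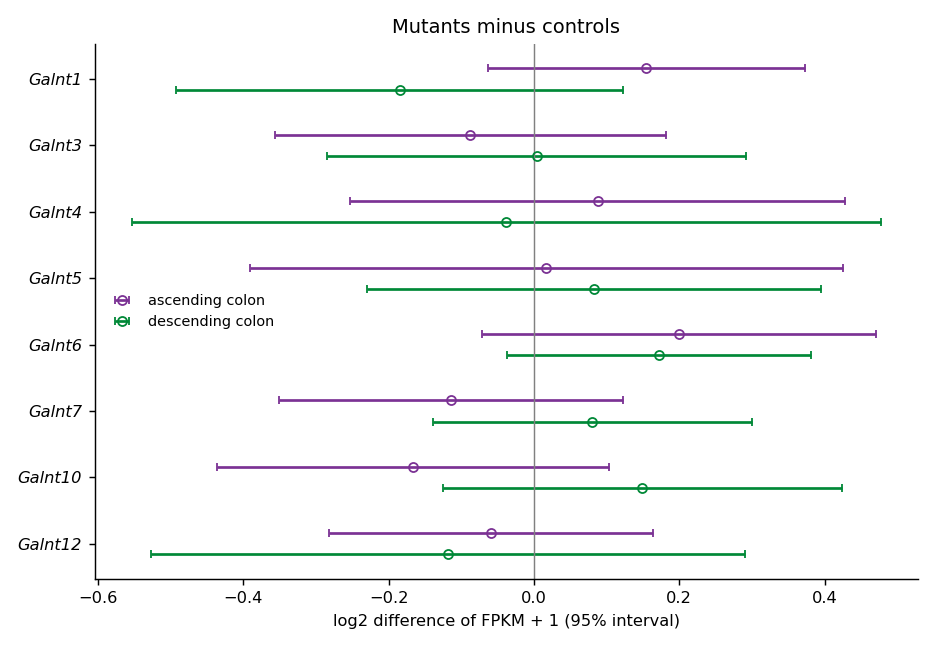
Fitted differences between mutants and controls on the log2 scale of FPKM + 1 (horizontal axis) in ascending (upper symbol of each pair) and descending colon (lower), with 95% intervals. All 16 intervals drawn cross 0; Galnt2 is not drawn.

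Galnt6 differed between cages in the descending colon. The 5 cage A libraries held 44.4, 46.8 and 38.0 FPKM in mutants and 35.7 and 37.4 FPKM in controls. The 10 libraries of cages B and C ran from 51.9 through a median of 71.2 to 86.0 FPKM. The groups did not overlap, and all 5 cage A libraries of both genotypes lay below. The log2 difference of cage A from the mean of cages B and C was -0.80 ± 0.10 (adjusted p = 0.00155), where 1.03% of genes were called, 0.352% higher and 0.679% lower. It kept its call in all 23 alternatives run, at -0.87 to -0.76. In the ascending colon Galnt6 held 57.3 to 68.1 FPKM in cage A, against 54.2 to 105 FPKM in cages B and C, a difference of -0.37 ± 0.13 (adjusted p = 0.135) that passed without ascending control B1 (-0.44 ± 0.099, adjusted p = 0.0271). Whether the cage difference itself differed between the regions was not tested.

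Galnt4 was higher in cage A in the ascending colon. The 5 cage A libraries held 76.5, 80.4 and 78.3 FPKM in mutants and 78.3 and 73.3 FPKM in controls, all above the 10 libraries of cages B and C, which ran from 32.2 through a median of 49.4 to 68.2 FPKM. The log2 difference was 0.66 ± 0.17 (adjusted p = 0.0495), where 2.44% of genes were called, 1.11% higher and 1.33% lower. The call lay at the threshold and was lost in 15 of 23 alternatives, at 0.52 to 0.72. In the descending colon the Galnt4 difference was 0.01 ± 0.25 (adjusted p = 0.986), 0.28 ± 0.23 without control A2 (adjusted p = 0.456) and -0.15 ± 0.18 without mutant C1 (adjusted p = 0.732), and cage A ran from 25.1 to 59.9 FPKM, against 18.2 to 67.0 FPKM in cages B and C. The other members passed in neither region between cage A and the rest, with Galnt7 and Galnt10 at 0.33 ± 0.12 and 0.37 ± 0.13 in ascending colon (adjusted p = 0.125 and 0.135). The ascending differences of Galnt5, Galnt1, Galnt3 and Galnt12 were 0.48 ± 0.20, 0.25 ± 0.11, 0.22 ± 0.13 and 0.18 ± 0.11 (adjusted p = 0.187, 0.193, 0.354 and 0.364). In ascending colon 6 of 9 members had an unadjusted p under 0.05, as had 2574 of all genes.

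In the descending colon the cage A difference was 0.30 ± 0.20 for Galnt12 (adjusted p = 0.495) and 0.01 ± 0.13 without control A2. It was 0.24 ± 0.15 for Galnt1, -0.24 ± 0.15 for Galnt5, 0.19 ± 0.13 for Galnt10, 0.12 ± 0.11 for Galnt7 and 0.09 ± 0.14 for Galnt3 (adjusted p = 0.472 to 0.791). Galnt2 was listed at 0 to 0.60 FPKM in the 5 descending cage A libraries, 3 of them at 0, against 0 to 2.97 FPKM in cages B and C, 1 of 10 at 0 (adjusted p = 0.0917, and 0.0453 without descending mutant B1). Galnt6 and Galnt2 were the 2 of 9 members with an unadjusted p under 0.05 in descending colon, as had 1889 of all genes. In the ascending colon Galnt2 was at 0 to 2.85 FPKM in cage A, against 0 to 5.83 FPKM in cages B and C.

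Between cages C and B, which share a strain label, 0 of 9 passed in ascending and 0 of 9 in descending colon with limma. Over all genes 0.0411% were called in ascending colon, 0.00821% higher and 0.0328% lower, and 0.0491% in descending colon, 0.00818% higher and 0.0409% lower. At an unadjusted p under 0.05 there were 0 and 2 of the 9 genes, Galnt2 and Galnt6 in descending colon, and 570 and 696 of all genes. Leaving out Galnt2, the cage C differences from cage B ran from -0.39 for Galnt5 to -0.01 for Galnt1 in ascending colon, and from -0.31 for Galnt6 to 0.22 for Galnt12 in descending colon.

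**Figure D4:**
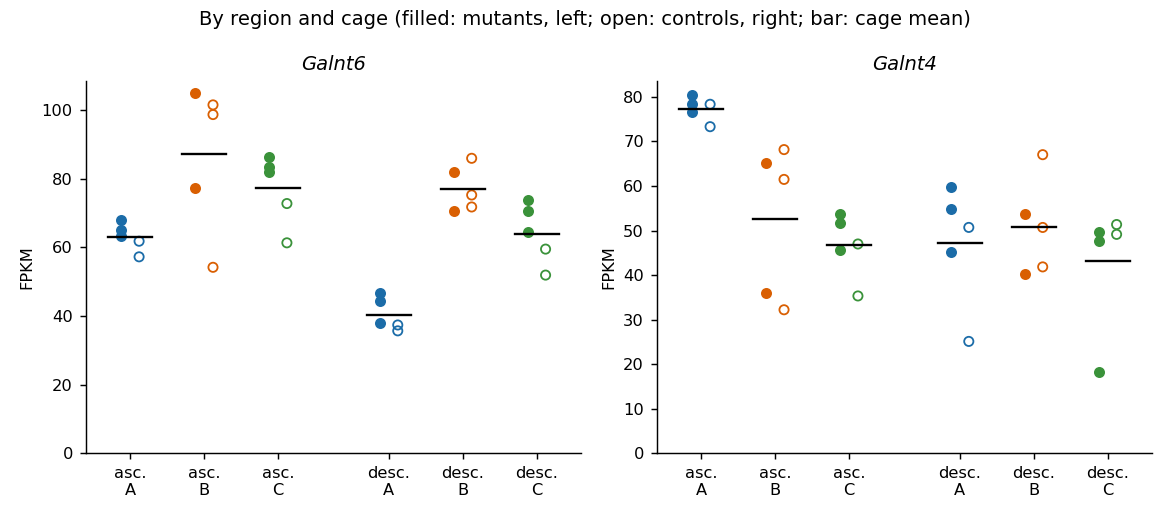
FPKM (vertical axes, from 0) of Galnt6 and Galnt4 by region and cage; filled symbols are mutants, open symbols controls, and bars are cage means over both genotypes. Galnt6 in the descending colon lies at 35.7 to 46.8 FPKM in cage A, below the 51.9 to 86.0 FPKM of cages B and C, and Galnt4 in the ascending colon lies at 73.3 to 80.4 FPKM in cage A, above the 32.2 to 68.2 FPKM of the others.

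The relation of the members to goblet cell content was described with the summed level of 8 goblet markers (Muc2, Clca1, Fcgbp, Tff3, Zg16, Agr2, Spink4 and Spdef). In the ascending colon the 15 libraries fell into separate clusters of this sum. The 7 lower ones, at 3037 to 6338 FPKM, were the 5 libraries of cage C and mutant and control B1. The 8 higher ones, at 8715 to 12368 FPKM, were the 5 libraries of cage A and the other 3 of cage B. Correlations were therefore taken within each cluster, on the log2 scale.

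Within these clusters no member passed over the 18 relations computed (exact permutation test of the pairings, two-sided). The clusters were cut on the goblet sum itself, after the values were seen. Such a cut narrows the range of the sum and leaves 7 and 8 libraries, so a relation could be missed. Galnt5 came closest among the 7 lower libraries, with Pearson r = 0.90 and Spearman rho = 0.86 (exact permutation test, p = 0.00893 and 0.0238, adjusted p = 0.0804 and 0.214), and r = 0.53 without the 2 libraries farthest from the median sum. Among the 8 higher libraries Galnt5 had r = 0.14. Galnt7 came closest among the 8 higher libraries, with r = 0.86 and rho = 0.90 (exact permutation test, p = 0.00573 and 0.00456, adjusted p = 0.0804 and 0.0821), and r = 0.73 without the 2 farthest. Among the 7 lower libraries Galnt7 had r = 0.35. Galnt6 had r = 0.78 in the lower and -0.17 in the higher cluster (exact permutation test, adjusted p = 0.235 and 0.853), and Galnt4 had 0.48 and 0.09 (adjusted p = 0.853 and 0.884). Over all 15 ascending libraries, which span both clusters, Galnt4 had r = 0.89 and rho = 0.86. These passed (permutation test with 100000 resamples, adjusted p = 0.0003 and 0.0009 over 18 relations). The r of Galnt4 was 0.85 after cage means were removed. Across the same libraries Galnt5 and Galnt7 also passed, with r = 0.96 and 0.91 (permutation test, adjusted p = 0.00018 and 0.00027). After cage means were removed these were 0.94 and 0.83. Galnt3 and Galnt10 passed with r = 0.82 each (permutation test, adjusted p = 0.00087 and 0.000864). Galnt3, Galnt5, Galnt7 and Galnt10 passed with rho too (permutation test, adjusted p = 0.00036 to 0.00789). Galnt12 and Galnt1 passed with r = 0.65 and 0.61 (permutation test, adjusted p = 0.021 and 0.0263) but not with rho. Galnt6 had r = 0.18 and did not pass, with r = 0.86 after cage means were removed.

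In the descending colon the sum ran from 2654 to 12513 FPKM, with the highest value in mutant A3. Over the 15 descending libraries Galnt7 had r = 0.84 and rho = 0.79 (permutation test with 100000 resamples, adjusted p = 0.000864 and 0.00315 over 18 relations), r = 0.54 without the 2 farthest libraries, and 0.87 after cage means were removed. Galnt10 had r = 0.64 and rho = 0.50 (permutation test, adjusted p = 0.021 and 0.134), and r = 0.41 without the 2 farthest. For Galnt1 and Galnt3 the r of 0.70 and 0.59 rested on those 2 libraries and was -0.02 and -0.29 without them. Galnt4 had r = 0.56 (permutation test, adjusted p = 0.0644), Galnt5 0.36, Galnt6 -0.33 and Galnt12 0.07. The permutations over 15 libraries of a region mixed the cages, between which the goblet sum differed. Their p-values thus do not separate relations within cages from differences between cages. Other marker sums also followed some members closely in the ascending colon. With summed B and plasma cell markers, at most 10.7 FPKM there, r was 0.93 for Galnt7, 0.90 for Galnt3 and Galnt5, and 0.71 for Galnt4. In the descending colon these values were 0.22, 0.41, 0.03 and 0.34. The ascending relations of Galnt3, Galnt5 and Galnt7 were thus not particular to the goblet markers. Members and markers were measured in the same libraries and scaled by the same library total, and these relations were chosen after the values were seen. The cage A libraries of the ascending colon thus had both a high Galnt4 level and a high goblet marker sum, and the part of the goblet markers in the Galnt4 difference was not tested.

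**Figure D5:**
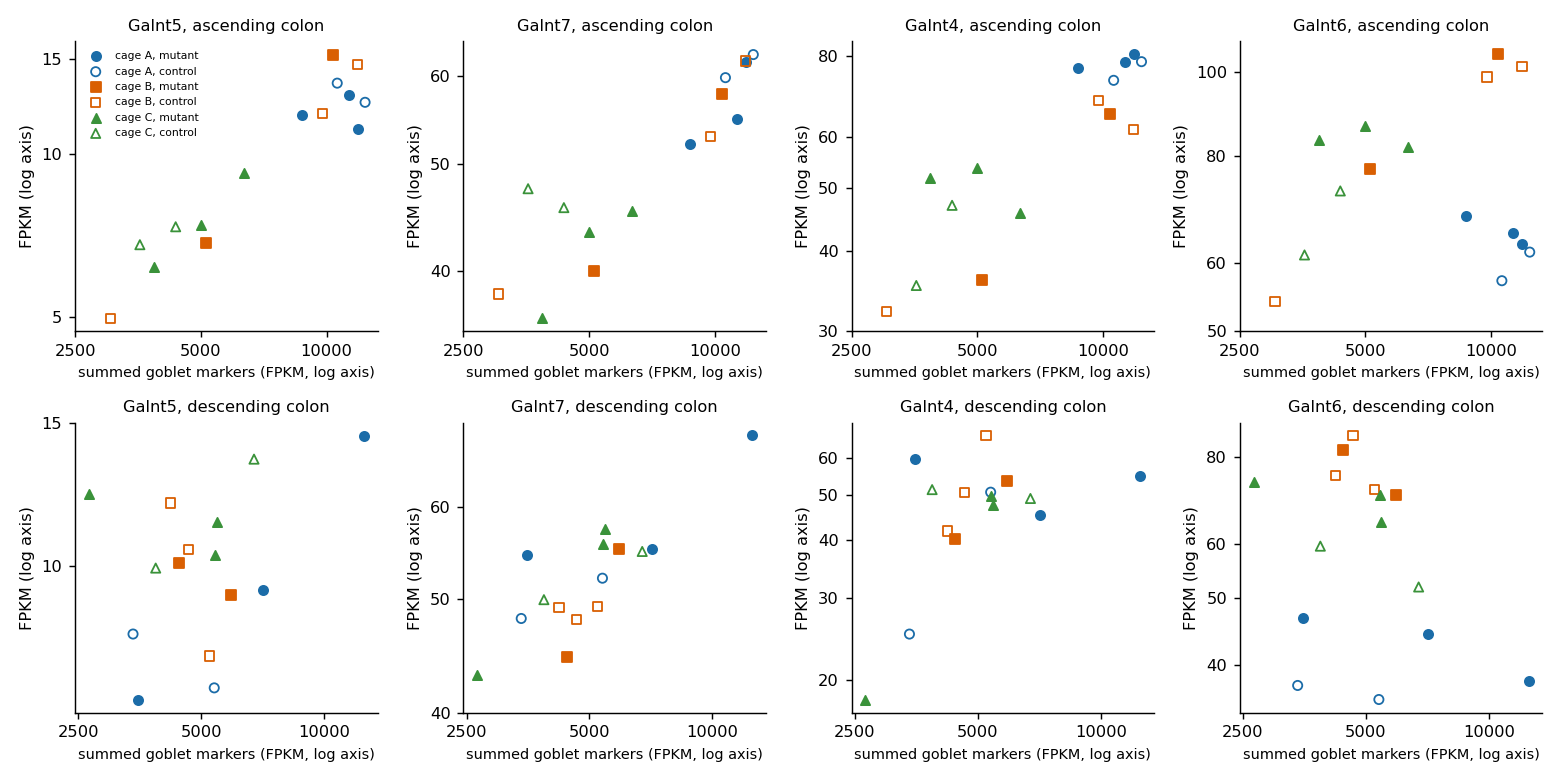
FPKM (vertical, log axes) of Galnt5, Galnt7, Galnt4 and Galnt6 against the summed FPKM of 8 goblet cell markers (horizontal, log axes) in the 15 ascending (top) and 15 descending libraries (bottom); symbols give cage, filled for mutants and open for controls. The ascending libraries form clusters at 3037 to 6338 and 8715 to 12368 FPKM of the goblet sum, and in the cluster of higher sums the cage A libraries lie at 57.3 to 68.1 FPKM of Galnt6.

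Genes around this first step were counted from lists chosen with earlier results known. Of the other members of the Galnt family, 6 of 11 listed were in the table and 3 were expressed enough to be tested between regions. Galnt17 and Galnt18 were lower in the ascending colon, by -1.25 ± 0.19 and -1.26 ± 0.14 in mutants (adjusted p = 4.95e-05 and 2.75e-06) and by -1.11 ± 0.16 and -0.63 ± 0.16 in controls (adjusted p = 0.000135 and 0.00772). Both were low, at most 5.06 and 3.5 FPKM in any library. Galnt11 was not called and held 3.12 to 6.95 FPKM.

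Among the enzymes that act on the first GalNAc, 2 of 6 tested were higher and 2 lower in the ascending colon of mutants, and 2 of 7 were higher and 1 lower in controls. Gcnt3, which makes the core 2 and core 4 branches, had the largest difference of the list, at 208 to 309 FPKM in ascending mutants against 19.1 to 33.4 FPKM in descending mutants, and 187 to 307 FPKM in ascending controls against 20.4 to 37.6 FPKM in descending controls (log2 differences 3.19 ± 0.12 and 3.10 ± 0.14, adjusted p = 1.89e-12 and 1.33e-08). Gcnt4, another core 2 branching enzyme, was higher by 1.81 ± 0.16 and 1.83 ± 0.23 (adjusted p = 1.66e-07 and 4.02e-05), and Gcnt1, also a core 2 enzyme, was lower, by -0.58 ± 0.18 and -0.71 ± 0.23 (adjusted p = 0.0162 and 0.0276). St6galnac1, which caps the first GalNAc with sialic acid, was lower in the ascending colon of mutants by -1.26 ± 0.31 (adjusted p = 0.00392). St6galnac1 was listed at 0 to 0.25 FPKM in all 10 cage A libraries, against 2.42 to 14 FPKM in ascending and 6.35 to 47.5 FPKM in descending libraries of cages B and C, with no overlap (adjusted p = 8.42e-05 and 9.35e-06). C1galt1 did not pass between regions.

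Of 8 genes that supply UDP-GalNAc, 2 were higher and 1 lower in the ascending colon of mutants, and 1 was higher and 1 lower in controls. Gnpnat1, an acetyltransferase of the hexosamine pathway, was higher by 0.47 ± 0.094 in mutants and 0.44 ± 0.086 in controls (adjusted p = 0.000744 and 0.00136), while Pgm3, the mutase that follows it, was lower by -0.34 ± 0.092 and -0.33 ± 0.10 (adjusted p = 0.0074 and 0.0195). Uap1, which makes the UDP sugar, was higher by 0.32 ± 0.098 in mutants (adjusted p = 0.0149). Of 6 mucin genes tested, Muc2 and Muc3a were higher and Muc1 lower in the ascending colon of each genotype, and Muc13 was lower in mutants. Muc2 was at 2516 to 7150 FPKM in ascending mutants against 381 to 1358 FPKM in descending mutants, and at 1923 to 8018 FPKM in ascending controls against 456 to 2136 FPKM in descending controls, where the highest descending control was A2. None of these 4 lists held a gene that passed between mutants and controls in either region.

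For each member, the genes most alike were taken by Pearson r over the 15 ascending and the 15 descending libraries separately, among 11387 genes that averaged 1 FPKM or more, ranked by the lower of the 2 values. Galnt4 had the closest partners, Gdpd1 (r = 0.95 in ascending and 0.95 in descending colon) and Atp6ap2 (0.94 and 0.94). Galnt7 was most like Asns (0.88 and 0.87) and Uggt1 (0.93 and 0.87). Galnt12 was most like Wtip (0.90 and 0.86) and Rasd1 (0.87 and 0.83), and Galnt10 was most like Creb3l1 (0.84 and 0.83) and Atp2a3 (0.82 and 0.81). Galnt1 was paired with Erp44 and Fem1b, Galnt3 with Mogs and Dnajc10, Galnt5 with Stk39 and Pigb, Galnt6 with 9530053A07Rik and Hsd17b13, and Galnt2 with Ino80b and Ssbp3, at a lower r of 0.66 to 0.88. These are descriptions over libraries that share cages and scaling, and of the 18 pairs only that of Galnt10 with Creb3l1 recurred when Spearman's rho was used. In the ascending colon the values of r also span the clusters of goblet marker sums described above.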

How the data were processed

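RNA of ascending and descending colon was depleted of ribosomal RNA and sequenced as single reads of 50 nt, per the labels' protocols. The values deposited by the authors are FPKM. The tools named are bcl2fastq 2.17, STAR and DESeq2, with build GRCm38 (mm10), per the submitters' processing notes; for the gene counter, annotation, gene lengths and use of strand the sources used here give nothing. The files give no read counts, and depth was estimated from the spacing of low values in genes of 300 to 2500 nt (73.3 to 84.5% of them within 0.2 of a step); it entered no test.

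Groups follow the labels. The scale was log2(FPKM + 1). Genes averaging 0.5 FPKM or more entered each fit, and limma 3.58.1 in R 4.3.3 was fitted across all genes with cage as a covariate and a trend on the mean; cage comparisons had genotype as a covariate. A fold change on this scale understates that of low genes. The threshold was 0.05 for the two-sided p, adjusted by Benjamini-Hochberg over all genes tested. The fits were tested on simulated data. The criterion for pairing libraries by their number was not met, and whether same-numbered libraries share a mouse is not known. Results are given for all 9 genes, without a fold change for Galnt2 and by range where none passed. From each list at most 4 genes that passed are given, with the smallest adjusted p. The members and lists were chosen with earlier results of these data known. Alternatives were another pseudocount (0.1) and filter (none, or 2 FPKM), median-of-ratios and quantile scaling, array quality weights, no cage covariate, 1 fit of all libraries, a replicate block, and each cage or library left out. Leaving out 2 libraries together and the relation to goblet markers, with its clusters, were added after seeing the data. Positions are from GENCODE M21 and promoter windows from RefSeq (GRCm38.p6).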

Additional observations from a re-analysis of the deposited data

Results flagged for a closer look

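Among the 36 sets of 1 gene in 1 region and genotype, 5 held a library far from the others, where chance alone flags about 1 in 20. Galnt12 in the library labelled descending control A2 was 64.4 FPKM, with the next descending control at 32.2 FPKM; Hoxd13 in that library was 0.38 FPKM. Galnt12 and Galnt1 in descending mutant A3 were 35.9 and 18.6 FPKM, with the next mutants at 27.4 and 12.01 FPKM, and that library had the highest goblet marker sum of its region (12513 FPKM). Galnt4 in descending mutant C1 was 18.2 FPKM, with the next mutant at 40.3 FPKM; that library also had the lowest Epcam (322 FPKM). Galnt2 in ascending control C2 was 5.83 FPKM, with the next control at 2.46 FPKM. The part of these library features in the values was not tested.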

How the results depend on the processing

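Between regions, Galnt12 kept its call in all 29 alternatives in mutants (1.27 to 1.49) and all 27 in controls (1.12 to 1.54), and Galnt10 in 28 of 29 and 27 of 27. The number of members higher in the ascending colon of mutants was 4 as reported, and 1 without cage A. In controls it was 3, and 5 with array quality weights, 5 with ascending control B1 and descending control A2 both left out, and 2 to 5 with 1 library left out. The counts of 5 include Galnt2, whose low values are uncertain. Median-of-ratios scaling gave 6 in mutants and 4 in controls. Over all genes it gave 2325 of 12193 higher in mutants and 2141 of 12494 in controls. As deposited these were 1748 of 12203 and 1598 of 12515. Members higher in cage A in ascending colon numbered 1, and 0 with a pseudocount of 0.1, with no filter, with median-of-ratios scaling or with 1 fit of all 30 libraries, 2 with array quality weights, and 0 to 1 with 1 library left out; members lower numbered 0, and 1 with array quality weights, 1 without the 2 libraries named above, and 0 to 1 with 1 library left out. In descending colon 1 was lower, 2 with array quality weights and 1 to 2 with 1 library left out. Between cages C and B in ascending colon array quality weights gave 2 lower, against 0. No member passed between genotypes in any alternative, although all-gene counts in ascending colon, 0 as reported, reached 746 with array quality weights, 652 without cage B and 170 without 1 library. Over all alternatives, genes called ranged from 3528 to 6540 between regions in mutants (5368 as reported), 2069 to 6232 in controls (4744), 74 to 1077 and 46 to 1234 for cage A in ascending and descending colon (297 and 126), 3 to 243 and 0 to 16 for cages C and B (5 and 6), and 0 to 381 and 0 to 132 for genotype by cage (0 and 1). No called difference changed sign.

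With the title numbers as a replicate block, members higher in the ascending colon numbered 4 in mutants and 2 in controls, and 0 differed between genotypes; calls over all genes were 5219 against 5368 in mutants and 4236 against 4744 in controls. Libraries of the same number deviated together (r over 0.1) in 4 of 15 pairs between regions and in 3 of 6 pairs between genotypes in each region. As not every pair did, the numbers were not taken as pairs. Between regions, both pairs of a group of 2 libraries gave the same r, because deviations from a mean of 2 mirror each other. Pairs of unlike number were not compared, so this check cannot decide whether the numbers mark a shared mouse. The block could not be fitted for cage comparisons. The causes were not tested. No interval for counting error can be given without counts. Taken over all 15 ascending libraries, Galnt5 and Galnt7 had r = 0.96 and 0.91 with the goblet markers, against 0.90 and 0.35 within the 7 libraries of lower sums and 0.14 and 0.86 within the 8 of higher sums. Galnt4 had r = 0.89 over all 15, against 0.48 within the lower and 0.09 within the higher sums.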
